A study of Mus musculus with 21 samples.

Results

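The genes described here were the 4 mouse Notch receptors (Notch1, Notch2, Notch3 and Notch4) and their 5 canonical ligands (Dll1, Dll3, Dll4, Jag1 and Jag2). Their rows were taken by symbol, and the set was chosen with earlier results of these data known. All 9 were listed once in both deposited tables of FPKM, the number of sequenced fragments scaled to transcript length and library size. These 9 genes stood among 19321 genes with values in the coculture table and 27968 genes in the sorted cell table.

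The study asked how hematopoietic cells arise from mouse pluripotent stem cells (PSCs) when embryoid bodies induced for 6 to 8 days in a 3D self-assembling peptide are moved onto OP9 cells, a mouse bone marrow stromal line treated with mitomycin C. The first table held day 5 total cells grown on OP9 (3D+OP9, n = 3) or on 0.1% gelatin without stroma (3D+0.1% gelatin, n = 3). The second table held mouse embryonic stem cells (mESC, sorted with SSEA-1), day 5 cells of the OP9 coculture sorted as LSK and CD201+ (D5-LSKCD201+) or CD201- (D5-LSKCD201-), and CD201+ LSK cells from E12.5 fetal liver (FL-LSKCD201+) and from bone marrow of mice aged 6 to 8 weeks (BM-LSKCD201+), each with n = 3. LSK stands for lineage-negative, Sca-1+ and c-kit+, and CD201 (the endothelial protein C receptor, gene Procr) is a surface marker of stem cells of the blood and of endothelium. All coculture, D5 and mESC libraries carried the strain label 129/ola and all fetal liver and bone marrow libraries C57BL/6, so strain, culture and tissue cannot be told apart in comparisons across them. The OP9 coculture medium held stem cell factor, IL-3 and Flt3 ligand. The antibodies named for the LSK sort were 3, against c-kit, lineage antigens and CD201, and none against Sca-1. The study calls its replicates biological. The labels do not say whether the 3 libraries of a group came from separate cultures or animals, so each p-value measures the spread between these libraries, which may be technical.

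Notch receptors are single-pass membrane proteins that are activated by ligands on a neighbouring cell. Ligand pulling exposes the receptor to ADAM proteases and then to gamma-secretase, and the freed intracellular domain joins Rbpj and Mastermind proteins in the nucleus to switch on genes such as those of the Hes and Hey families. In the embryo, Notch1 with Dll4 and Jag1 is known for its part in arterial endothelium and in the birth of blood stem cells from it, Notch4 is mainly endothelial, and Dll1 and Dll3 pattern the somites.

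The libraries of the sorted cell table were checked against marker lists before the Notch genes were read. Procr stood at 57.9 to 61.9 FPKM in D5-LSKCD201+, against 3.02 to 3.82 in D5-LSKCD201-, in the direction of the sort. Ptprc, which encodes the pan-leukocyte antigen CD45, stayed below 1 FPKM in both D5 groups (0.305 to 0.602 with CD201 and 0.419 to 0.935 without), against 38.4 to 52.1 in fetal liver and 64.3 to 71.6 in bone marrow. The endothelial list of 15 genes, by contrast, summed to between 2866 and 2912 FPKM in D5-LSKCD201+, to between 264.2 and 281.7 in D5-LSKCD201-, to between 530.7 and 607.7 in fetal liver and to between 421.0 and 462.1 in bone marrow. The endothelial cadherin Cdh5 was at 67.6 to 73.6 FPKM in D5-LSKCD201+ and did not exceed 1.60 in the 2 groups from mice. The 10 pluripotency genes summed to between 3777 and 4280 FPKM in D5-LSKCD201-, between 26.4 and 35.5 in D5-LSKCD201+ and between 6891 and 7455 in mESC. The LSK label is therefore used below as the name of a gate. In bulk RNA, fewer cells of a type and less RNA per cell cannot be told apart.

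Among the 5 sorted groups, the receptors and the ligands each had their highest sum in D5-LSKCD201+, and the mix differed from group to group. The 4 receptors summed to 31.7 ± 0.97 FPKM (SD, n = 3) in D5-LSKCD201+, 11.6 ± 1.39 in BM-LSKCD201+, 9.15 ± 0.46 in FL-LSKCD201+, 7.56 ± 3.54 in D5-LSKCD201- and 5.44 ± 0.12 in mESC. Notch4 made up 61.3% ± 2.02 of the receptor sum in D5-LSKCD201+, 5.04% ± 2.07 in BM-LSKCD201+ and 3.36% ± 0.72 in FL-LSKCD201+. In both mouse tissues Notch2 was the largest share, at 56.8% ± 0.64 in bone marrow and 52.3% ± 4.24 in fetal liver, whereas it held 1.93% ± 0.26 in D5-LSKCD201+. The 5 ligands summed to 54.5 ± 0.68 FPKM in D5-LSKCD201+, 28.1 ± 4.62 in D5-LSKCD201-, 16.2 ± 1.27 in mESC, 6.76 ± 0.62 in BM-LSKCD201+ and 5.41 ± 0.57 in FL-LSKCD201+. The leading ligand was Dll4, Dll3 or Jag2, depending on the group. Dll4 held 72.0% ± 1.71 of the ligand sum in D5-LSKCD201+ and 50.1% ± 1.65 in fetal liver, Dll3 held 58.5% ± 3.33 in D5-LSKCD201- and 48.6% ± 2.04 in mESC, and Jag2 held 77.6% ± 12.8 in bone marrow. These shares compare FPKM, which are per length of transcript, and are given as a description with no test.

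**Figure D1:**
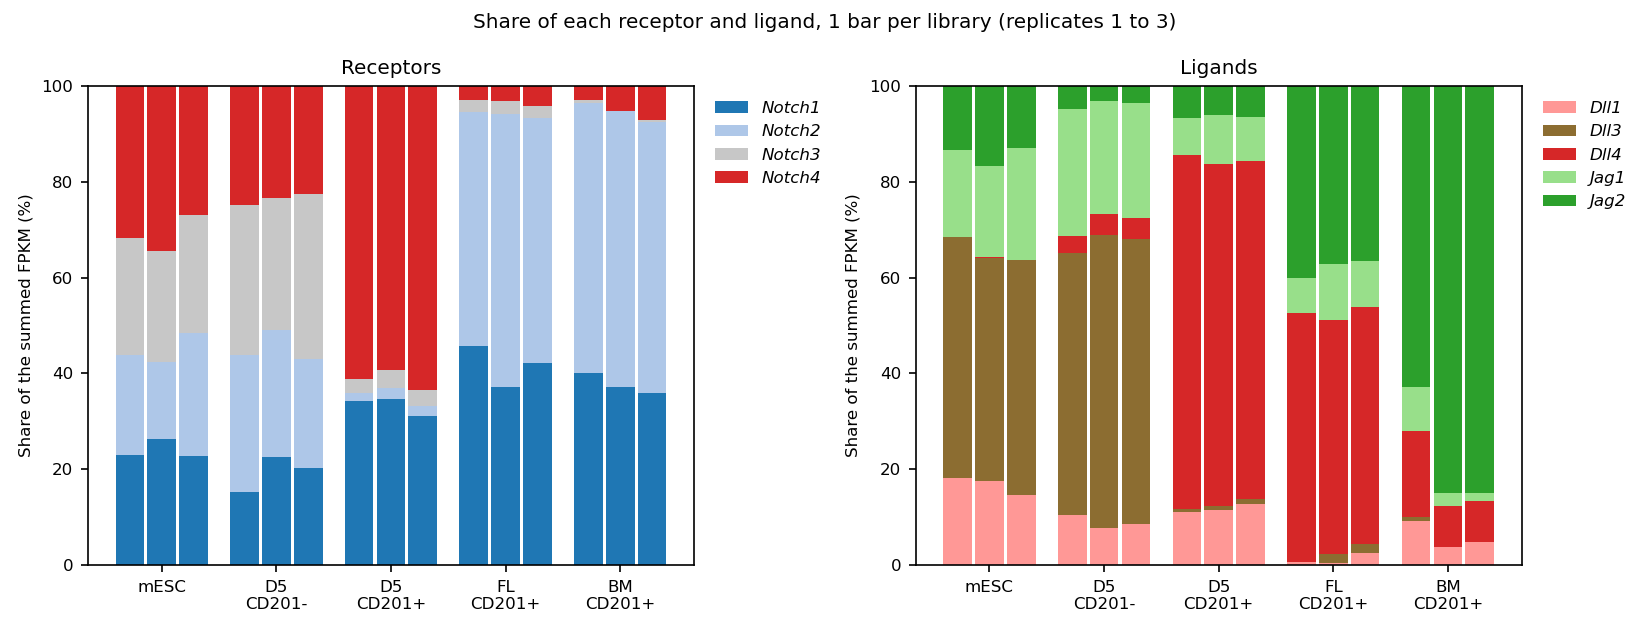
Stacked bars give the share (%) of each receptor in the summed FPKM of the 4 receptors (left) and of each ligand in the summed FPKM of the 5 ligands (right), 1 bar per library in replicate order for the 5 sorted groups. Notch4 and Dll4, both in red, take 59.4% to 63.4% and 70.7% to 74.0% of the bars of D5-LSKCD201+, and Notch2 and Jag2 are the largest blocks in bone marrow.

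The promoters of Notch1, Notch4 and Dll4 are printed because these 3 genes, of the 9, were called higher in D5-LSKCD201+ than in each of the other 4 sorted groups. The sequences are from RefSeq (GRCm38.p6), 5′ to 3′ on the strand of the gene, and cover the part of the 250 bases before the start that no annotated exon overlaps. Capitals mark GGAA or its reverse complement TTCC, the core letters bound by Ets factors.
Notch1 (chr2:26503825-26504072, minus strand, 248 bases): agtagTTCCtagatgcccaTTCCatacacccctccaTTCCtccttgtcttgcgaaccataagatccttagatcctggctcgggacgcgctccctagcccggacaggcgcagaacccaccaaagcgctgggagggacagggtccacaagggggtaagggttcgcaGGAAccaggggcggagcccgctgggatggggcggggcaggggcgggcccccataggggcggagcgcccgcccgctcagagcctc
Notch4 (chr17:34564045-34564267, plus strand, 223 bases): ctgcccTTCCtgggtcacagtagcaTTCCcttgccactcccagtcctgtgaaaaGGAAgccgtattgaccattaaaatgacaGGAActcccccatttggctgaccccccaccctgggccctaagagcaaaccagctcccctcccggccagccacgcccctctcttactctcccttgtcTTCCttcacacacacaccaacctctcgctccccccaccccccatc
Dll4 (chr2:119325565-119325783, plus strand, 219 bases): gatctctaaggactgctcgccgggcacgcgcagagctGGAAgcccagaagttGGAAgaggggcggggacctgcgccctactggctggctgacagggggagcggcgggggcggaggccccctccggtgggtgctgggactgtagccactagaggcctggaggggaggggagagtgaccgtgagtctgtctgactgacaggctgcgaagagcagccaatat
The core occurred 4 times in the Notch1 stretch (which lies at the RefSeq start, inside the longer GENCODE span given for the gene below), 5 times in that of Notch4 and 2 times in that of Dll4. Over whole windows of 250 bases on both strands, GGAA was present for 7 of the 9 genes and in 93.4% of 32851 mouse promoters, with a median of 3 copies over all promoters. Each printed stretch is part of the window searched for its gene. TGGGAA, the core of the Rbpj site, was in the windows of 0 of the 9 genes and in 21.6% of all promoters. That motif contains GGAA, so both searches overlap. The Gata letters AGATAA were in 0 of the 9 and in 9.99% of promoters, and the Sox letters ACAATG were in 3 of the 9 (Notch4, Dll1 and Jag1) and in 10.7%. A match is a string of letters in this window and was not tested for binding.

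Notch1 (ENSMUSG00000026923, GRCm38 chr2:26457903-26516663, minus strand), the receptor required in embryonic arteries for blood stem cells to form, was at 11.2, 10.9 and 9.61 FPKM in the 3 libraries of D5-LSKCD201+. The D5-LSKCD201- libraries held 1.49, 0.784 and 1.91 FPKM. It was at 1.21, 1.46 and 1.25 FPKM in mESC, 3.95, 3.55 and 3.91 in FL-LSKCD201+ and 5.28, 3.87 and 4.06 in BM-LSKCD201+. The D5-LSKCD201+ libraries lay above all others, fetal liver and bone marrow overlapped in the middle, and D5-LSKCD201- and mESC overlapped at the bottom. On the scale log2(FPKM + 1), on which folds of low genes are understated, Notch1 was 2.30 higher in D5-LSKCD201+ than in D5-LSKCD201- (SE 0.18, limma, adjusted p = 3.0e-05). The difference was 2.33 against mESC, 1.27 against fetal liver and 1.11 against bone marrow, all called. These 4 comparisons share the same D5-LSKCD201+ libraries and are not independent of each other. A gene was called where its adjusted p was under 0.05 and its log2 difference was 1 or more in size.

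Notch4 (ENSMUSG00000015468, chr17:34564268-34588503, plus strand), the receptor of vascular endothelium, was at 20.04, 18.7 and 19.5 FPKM in D5-LSKCD201+, whereas D5-LSKCD201- had 2.42, 0.814 and 2.13. It was at 1.68, 1.90 and 1.48 FPKM in mESC, 0.247, 0.289 and 0.389 in FL-LSKCD201+ and 0.384, 0.537 and 0.798 in BM-LSKCD201+. The lowest D5-LSKCD201+ library was thus above the highest of the other 12, and both groups from mice stayed under 1 FPKM. The log2 difference was 2.92 (SE 0.23, limma, adjusted p = 2.9e-05) against D5-LSKCD201-, 2.93 (SE 0.08) against mESC, 3.96 (SE 0.08) against fetal liver and 3.71 (SE 0.11) against bone marrow. The ranges of fetal liver and bone marrow overlapped, as did those of D5-LSKCD201- and mESC.

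Notch2 (ENSMUSG00000027878, chr3:98013527-98150361, plus strand), a receptor with broad use in blood lineages, was highest in bone marrow. It was at 0.535, 0.677 and 0.617 FPKM in D5-LSKCD201+, 4.21, 5.43 and 4.76 in FL-LSKCD201+ and 7.42, 6.00 and 6.39 in BM-LSKCD201+. The values were 1.11, 0.882 and 1.42 FPKM in mESC and 2.78, 0.921 and 2.15 in D5-LSKCD201-. D5-LSKCD201+ was the lowest of the 5 groups, and no library of it reached any other group. Notch2 was called lower than in fetal liver (log2 difference -1.84, SE 0.10, limma, adjusted p = 5.9e-06) and than in bone marrow (-2.24, SE 0.10, adjusted p = 5.0e-07). Against D5-LSKCD201- the difference was -0.82 (SE 0.24, adjusted p = 0.0175) and against mESC -0.40 (SE 0.10, adjusted p = 0.00556), both short of the fold threshold. D5-LSKCD201- replicate 2 had the lowest value of its group for every receptor and ligand. Replicates 1 and 3 of that group lay closest to each other (root mean square log2 difference 0.161, next closest pair 0.416). Without replicate 2 the difference from D5-LSKCD201- became -1.10 and passed, but the spread of that group then rested on this close pair. It also passed with a pseudocount of 0.1 (-1.41).

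Notch3 (ENSMUSG00000038146, chr17:32120820-32166852, minus strand), the receptor of pericytes and vascular smooth muscle, did not exceed 3.24 FPKM in any sorted library. It was at 0.942, 1.18 and 1.05 FPKM in D5-LSKCD201+, against 3.08, 0.964 and 3.24 in D5-LSKCD201- and 1.29, 1.28 and 1.35 in mESC. Fetal liver held 0.228, 0.261 and 0.228 FPKM and bone marrow 0.0765, 0.0179 and 0.0647. The mouse tissues lay below every D5 and mESC library. No Notch3 difference was called in the 4 comparisons of D5-LSKCD201+. The log2 difference was -0.66 (SE 0.29, limma, adjusted p = 0.0793) against D5-LSKCD201- and -0.17 against mESC. It was 0.73 against fetal liver and 0.96 against bone marrow, where the adjusted p passed (0.000189 and 2.4e-05) and the fold did not. With a pseudocount of 0.1 in place of 1, these last differences were 1.77 and 2.94 and passed, and the one against bone marrow also passed with quantile normalization (1.10) and without D5-LSKCD201+ replicate 1 (1.005). Without D5-LSKCD201- replicate 2, which left only the close pair of that group, the first difference was -1.02 and passed both thresholds.

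Dll4 (ENSMUSG00000027314, chr2:119325784-119335962, plus strand), the ligand of arterial and sprouting endothelium, was the most abundant of the 9 in D5-LSKCD201+, at 39.9, 38.8 and 39.1 FPKM. It was at 1.07, 0.999 and 1.35 FPKM in D5-LSKCD201-, and at 0.0161, 0.0565 and 0.0143 in mESC. Fetal liver had 3.14, 2.57 and 2.44 FPKM and bone marrow 1.34, 0.547 and 0.542. The order was D5-LSKCD201+, fetal liver, then D5-LSKCD201- and bone marrow with overlapping ranges, and mESC near 0. The log2 difference of D5-LSKCD201+ was 4.24 (SE 0.09, limma, adjusted p = 8.3e-08) against D5-LSKCD201-, 5.29 (SE 0.06) against mESC, 3.44 (SE 0.09) against fetal liver and 4.50 (SE 0.16) against bone marrow. The long non-coding gene Gm14207 lies on the opposite strand with exons overlapping those of Dll4, and it was at 3.13 to 5.75 FPKM in D5-LSKCD201+ and 0.447 to 2.37 in fetal liver. Whether the counting used strand is not given in the sources used here, so reads of Dll4 and Gm14207 in the shared bases cannot be told apart. Exons of 5 other annotated genes overlap those of Notch1, Notch2, Notch3 or Dll1, and the highest of them, Gm13568 at Notch1, did not exceed 3.37 FPKM. That maximum was in bone marrow, where Gm13568 stood at 1.08 to 3.37 FPKM and Notch1 at 3.87 to 5.28. Gm13568 also lies on the opposite strand, so the limit given for Dll4 holds for Notch1 there.

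Dll1 (ENSMUSG00000014773, chr17:15367354-15376872, minus strand), a ligand of somites, neural progenitors and fetal arteries, was at 5.98, 6.21 and 6.99 FPKM in D5-LSKCD201+. The D5-LSKCD201- libraries had 3.13, 1.77 and 2.71 FPKM. It was at 3.09, 2.60 and 2.43 FPKM in mESC. Fetal liver had 0.0407, 0.0177 and 0.119 FPKM and bone marrow 0.693, 0.235 and 0.309. Every D5-LSKCD201+ library was above every other library, and both tissues were below 1 FPKM. The log2 difference was 1.08 (SE 0.16, limma, adjusted p = 0.000751) against D5-LSKCD201-, 2.80 (SE 0.09) against fetal liver and 2.40 (SE 0.14) against bone marrow. Against mESC it was 0.998 (SE 0.09), just short of the fold threshold, and it passed with a pseudocount of 0.1 (1.21), without mESC replicate 1 (1.07) and without D5-LSKCD201+ replicate 1 (1.04) or 2 (1.014). The call against D5-LSKCD201- also sat at that threshold and was lost without D5-LSKCD201- replicate 2, at 0.92.

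Dll3 (ENSMUSG00000003436, chr7:28293553-28302238, minus strand), a divergent family member that acts inside the cell and is known as an inhibitor in somites, was highest in D5-LSKCD201-. It was at 16.4, 14.0 and 18.7 FPKM in D5-LSKCD201-, 8.60, 6.84 and 8.22 in mESC and 0.335, 0.493 and 0.581 in D5-LSKCD201+. In fetal liver it was listed at 0, 0.108 and 0.0935 FPKM, and in bone marrow at 0.0510, 0 and 0. The 2 groups rich in pluripotency genes were the 2 with Dll3 above 1 FPKM, and their ranges did not meet. Dll3 was called lower in D5-LSKCD201+, both against D5-LSKCD201- (-3.56, SE 0.13, limma, adjusted p = 7.3e-07) and against mESC (-2.59, SE 0.11). It was below the mean of 0.5 FPKM that a gene needed to be tested against fetal liver or bone marrow.

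Jag1 (ENSMUSG00000027276, chr2:137081456-137116644, minus strand), the Jagged ligand of the aorta, was at 7.96, 5.41 and 7.60 FPKM in D5-LSKCD201-, against 4.10, 5.55 and 4.98 in D5-LSKCD201+ and 3.09, 2.79 and 3.91 in mESC. It was at 0.447, 0.612 and 0.474 FPKM in fetal liver and 0.696, 0.185 and 0.109 in bone marrow. The D5 groups overlapped each other, and both tissues lay under 1 FPKM. Jag1 was called higher in D5-LSKCD201+ than in fetal liver (1.95, SE 0.12, limma, adjusted p = 7.6e-06) and bone marrow (2.16, SE 0.18, adjusted p = 1.6e-05). The log2 difference was -0.43 (SE 0.16, adjusted p = 0.0453) against D5-LSKCD201- and 0.46 (SE 0.12, adjusted p = 0.00677) against mESC, neither past the fold threshold.

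Jag2 (ENSMUSG00000002799, chr12:112907819-112929776, minus strand), the Jagged ligand also made by blood progenitors, was the ligand with the highest level in bone marrow, at 4.69, 5.43 and 5.44 FPKM. It was at 3.63, 3.33 and 3.62 FPKM in D5-LSKCD201+, against 1.41, 0.698 and 1.10 in D5-LSKCD201-, 2.27, 2.46 and 2.18 in mESC and 2.41, 1.95 and 1.81 in fetal liver. Only the ranges of mESC and fetal liver met. The 1 call among the comparisons of D5-LSKCD201+ was against D5-LSKCD201- (1.14, SE 0.14, limma, adjusted p = 0.000281). The log2 difference was 0.45 against mESC, 0.57 against fetal liver and -0.45 against bone marrow, all with an adjusted p under 0.05 and a fold below the threshold.

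**Figure D2:**
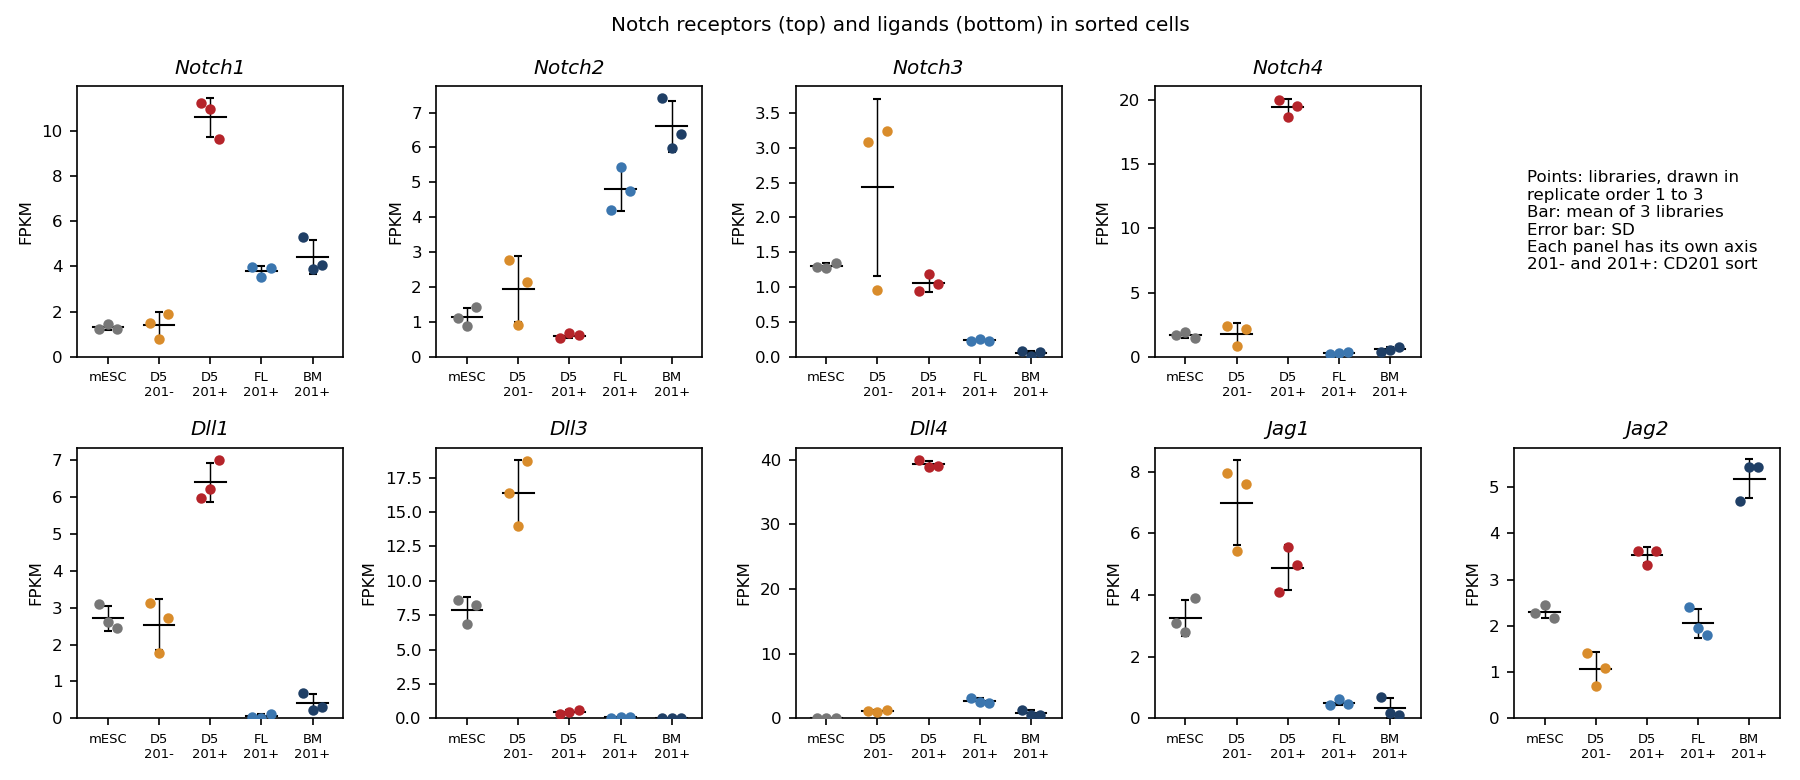
Each panel gives FPKM (own linear axis from 0) of 1 gene in the 5 sorted groups, with points for the 3 libraries in replicate order, a bar at the mean and an error bar of 1 SD. D5-LSKCD201+ (dark red) stands alone at the top for Notch1, Notch4, Dll1 and Dll4, bone marrow (dark blue) for Notch2 and Jag2, and D5-LSKCD201- (orange) for Dll3.

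Against all genes tested, the counts were as follows. In D5-LSKCD201+ against D5-LSKCD201-, 5 of the 9 genes were called higher (Dll4, Notch4, Notch1, Jag2 and Dll1) and 1 lower (Dll3), where 10.8% of all genes tested were called higher and 13.9% lower. The study also singled out Notch1, Notch4, Dll1, Dll4 and Hey1 on these samples, so their direction here is not independent evidence. The libraries of both groups did not overlap for 7 of the 9, against 73.6% of all genes, so that count is near the background. The same holds against mESC (9 of 9, with 86.1% of all genes), fetal liver (8 of 8, with 76.6%) and bone marrow (8 of 8, with 85.3%). The median log2 difference of the 9 was 1.08 and that of all genes -0.12. Against mESC, 3 of 9 were called higher and 1 lower, with 19.5% and 18.1% of all genes. Against fetal liver, 5 of the 8 tested were called higher and 1 lower (15.1% and 19.6% of all genes), and against bone marrow likewise 5 and 1 of 8 (17.5% and 27.2%). Some called genes had a mean under 0.5 FPKM in the lower group and entered the test through the higher one, namely Dll3 against D5-LSKCD201-, Dll3 and Dll4 against mESC, Dll1 and Notch4 against fetal liver, and Dll1 and Jag1 against bone marrow. The endothelial markers moved with these counts, as 14 of 15 were called higher in D5-LSKCD201+ than in D5-LSKCD201-, 12 of 15 than in fetal liver and 13 of 15 than in bone marrow, and of 15 hematopoietic markers 14 were called lower than in fetal liver and 14 than in bone marrow. Against D5-LSKCD201-, 4 of 13 hematopoietic markers tested were called higher and 2 lower, with sums of 120.4 to 125.4 FPKM against 41.9 to 45.2. All 10 pluripotency genes were called lower in that comparison. The stromal list of 15 genes summed to 133.4 to 141.1 FPKM in D5-LSKCD201+ and 61.1 to 98.3 in D5-LSKCD201-. Between these 2 groups, 3 of 14 tested were called higher and 1 lower. The list summed to 13.7 to 16.9 FPKM in fetal liver and 7.29 to 8.17 in bone marrow. Of 12 tested, 9 were called higher in D5-LSKCD201+ than in fetal liver and 11 than in bone marrow. Against mESC, 15 of 15 endothelial and 11 of 13 tested stromal genes were called higher in D5-LSKCD201+, and 10 of 10 pluripotency genes lower. Of 11 hematopoietic markers tested there, 5 were called higher and 1 lower. The part of these markers in the Notch differences was not tested.

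**Figure D3:**
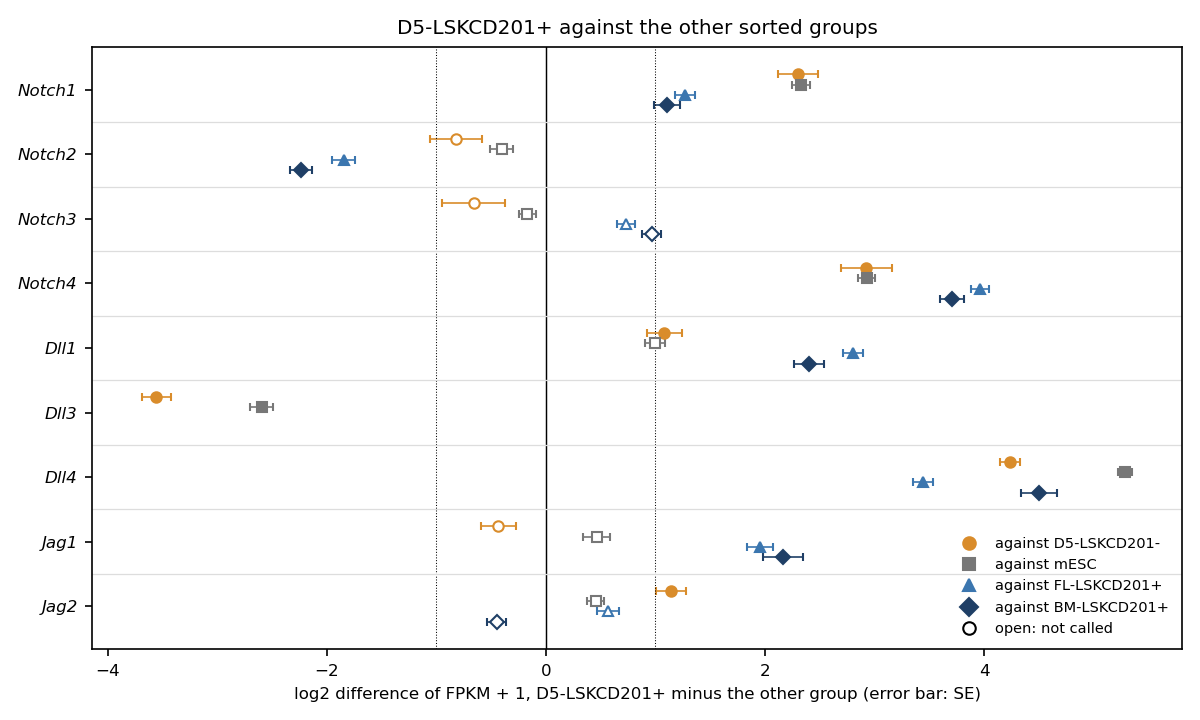
Points give the log2 difference of FPKM + 1 between D5-LSKCD201+ and each of the 4 other sorted groups (x axis, error bar: SE, n = 3 per group), filled where called and open where not, with dotted lines at the fold threshold. Dll4 and Notch4 lie right of 2.9 in all 4 comparisons, Notch2 lies left of 0 in all 4, and Dll3 was tested in 2.

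In D5-LSKCD201- against mESC, the count of calls was near that of all genes. Of the 9 genes, 1 was called higher (Dll4, log2 difference 1.05, SE 0.09, limma, adjusted p = 8.2e-05) and 0 lower, with 10.9% and 3.48% of all genes, and another 3 passed the adjusted p alone (Dll3 0.96, Jag1 0.90 and Jag2 -0.69). The libraries did not overlap for 4 of the 9, against 64.4% of all genes. Notch1, Notch4 and Dll1 differed from mESC by 0.03, 0.00 and -0.08, with adjusted p of 0.905, 0.988 and 0.690. The Dll4 call rests on a level near 1 FPKM in D5-LSKCD201-, through which it entered the test, since its mESC mean was 0.029 FPKM. It was lost under quantile normalization (0.76) and without D5-LSKCD201- replicate 3 (0.98), and the gene was not tested where a mean of 1 FPKM was required. Of the marker lists, 9 of 15 endothelial and 11 of 13 tested stromal genes were called higher than in mESC, where the lists summed to 70.3 to 76.3 and 10.2 to 12.4 FPKM, and 3 of 10 pluripotency genes were called lower. Their part in the Dll4 value was not tested. For all genes, 1476 were called higher and 473 lower, and under quantile normalization 1104 and 741.

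In the 2 mouse tissues, 4 of the 9 genes (Notch1, Notch2, Dll4 and Jag2) had the mean of 0.5 FPKM needed for a test. Dll4 was called higher in fetal liver than in bone marrow (log2 difference 1.06, SE 0.19, limma, adjusted p = 0.00281) and Jag2 lower (-1.02, SE 0.13, adjusted p = 0.000501), with 7.78% of all genes called higher and 11.3% lower. The groups did not overlap for 3 of the 4, against 63.5% of all genes. Of the marker lists, 4 of 14 tested endothelial genes were called higher and 0 lower, and 5 of 15 hematopoietic genes lower and 0 higher. Of 5 tested stromal genes, 2 were called higher and 1 lower. The part of these markers in the Dll4 and Jag2 values was not tested. Replicates 2 and 3 lay closest in both tissues (root mean square log2 difference 0.144 and 0.138, next closest pairs 0.434 and 0.336). The Dll4 and Jag2 differences both sat at the fold threshold. That of Dll4 was 0.96 without bone marrow replicate 2 or replicate 3 and 0.98 without fetal liver replicate 1, and that of Jag2 was -0.99 without bone marrow replicate 2 or 3, -0.997 without fetal liver replicate 2 and -0.96 without fetal liver replicate 3. The difference was -0.39 for Notch2 (adjusted p = 0.0376, or 0.0715 with the replicate number as a block) and -0.16 for Notch1 (adjusted p = 0.338).

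The coculture table asks what OP9 stroma changes in day 5 total cells. Dll4 was at 2.60, 2.60 and 1.43 FPKM in 3D+OP9 and at 0.68, 0.13 and 0.15 in 3D+0.1% gelatin, so the groups did not overlap. It was the 1 gene of 9 called higher (log2 difference 1.28, SE 0.22, limma, adjusted p = 0.0161), with 2.11% of all genes called higher, 0.509% lower and 0 of the 9 lower. Its mean on gelatin was 0.32 FPKM, so it entered the test through the OP9 libraries. The call depended on single libraries, since the adjusted p was 0.0645 without 3D+OP9 replicate 1, 0.0661 without replicate 2, 0.0882 without 3D+0.1% gelatin replicate 2 and 0.0623 without replicate 3, with differences of 1.18 to 1.20. Averaging 3D+OP9 replicates 1 and 2, which lay closest to each other (root mean square log2 difference 0.168, next closest pair 0.419), gave 1.19 with an adjusted p of 0.0635. Over all alternatives tried the Dll4 difference ranged from 1.15 to 2.65 and the adjusted p from 0.00356 to 0.0882.

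Notch4 was the other gene whose coculture groups did not overlap, 2 of 9 in all against 28.7% of all genes. It was at 1.36, 1.26 and 1.27 FPKM in 3D+OP9 and 0.43, 0.36 and 0.44 in 3D+0.1% gelatin. The log2 difference was 0.70 (SE 0.11, limma, adjusted p = 0.0103), which passed the test but not the fold threshold. The adjusted p was 0.0543 without 3D+OP9 replicate 1 and 0.0628 without 3D+0.1% gelatin replicate 2. With a pseudocount of 0.1 it was 1.46 and passed both, since a pseudocount of 1 shrinks folds near 1 FPKM. Endothelial genes moved the same way. Their list summed to between 146.9 and 179.7 FPKM on OP9 and between 35.5 and 51.8 on gelatin, with 9 of 14 tested called higher, among them Cdh5 (28.5 ± 3.38 against 1.73 ± 0.97 FPKM, SD, n = 3). Stromal genes, which the OP9 cells themselves express, summed to between 106.5 and 125.1 FPKM on OP9 and between 60.2 and 73.4 on gelatin, with 6 of 14 called higher. Hematopoietic genes summed to between 32.97 and 43.7 FPKM on OP9 and between 12.3 and 14.0 on gelatin, with 7 of 10 called higher. The part of these lists in the Notch4 and Dll4 values was not tested.

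The other 7 genes gave no call in the coculture, and in 6 of them replicate 3 was the lowest of its group on both surfaces. Notch1 was at 19.3, 17.7 and 8.34 FPKM on OP9 and 13.2, 10.6 and 6.74 on gelatin. Dll1 was at 32.9, 32.8 and 8.87 FPKM on OP9 and 28.6, 21.9 and 11.7 on gelatin. Dll3 was at 17.6, 18.2 and 5.65 FPKM on OP9 and 13.5, 11.8 and 8.87 on gelatin. The 6 genes were these 3 with Notch2, Notch3 and Jag1, and Jag2 was the exception. The summed somite list moved with them, at 40.3, 37.1 and 16.7 FPKM in 3D+OP9 and 30.95, 29.2 and 14.8 in 3D+0.1% gelatin. In mESC the same list summed to 318.7 to 325.7 FPKM, with 6 of its 8 genes under 1 FPKM in all libraries. A sum of this list can therefore rest on few genes and is not a measure of somite cells. The library numbered 3 on OP9 also differed in other marker lists. Its pluripotency genes summed to 1731 FPKM, against 904 and 896 in the other OP9 libraries and 1325, 1404 and 1352 on gelatin, and its neural genes to 37.3 FPKM, against 59.3 and 61.1 on OP9 and 51.2, 71.5 and 61.5 on gelatin. The part of these lists in the Notch values was not tested. Jag2 went the other way on OP9, at 3.67, 3.77 and 7.73 FPKM, with 6.17, 8.49 and 7.07 on gelatin. The log2 differences were 0.50 for Notch1, -0.05 for Notch2, 0.00 for Notch3, 0.13 for Dll1, 0.13 for Dll3, -0.07 for Jag1 and -0.50 for Jag2, with adjusted p (limma) between 0.289 and 0.993. Leaving out 1 library moved the difference of Notch1 between 0.254 (without 3D+0.1% gelatin replicate 3) and 0.85 (without 3D+OP9 replicate 3, adjusted p = 0.0502), and that of Jag2 between -0.344 (without 3D+OP9 replicate 1) and -0.795 (without 3D+OP9 replicate 3, adjusted p = 0.0110), none of them called. Without both libraries numbered 3, an alternative added after the data were seen, 1 of the 9 genes was still called higher, Dll4 at 1.39, and Notch1 (0.61, adjusted p = 0.0204) and Jag2 (-0.80, adjusted p = 0.0179) passed the adjusted p alone. Over all genes, 327 of 12958 were then called higher and 130 lower. By the adjusted p without the fold threshold it was 1182 higher and 898 lower, against 597 and 294 with all libraries.

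Notch3 and Dll1 had the largest shares in total cells on both surfaces. Notch3 held 47.5% ± 4.68 of the receptor sum in 3D+OP9 and 53.1% ± 2.34 in 3D+0.1% gelatin, and Dll1 held 44.2% ± 10.8 and 43.1% ± 6.96 of the ligand sum. Notch3 was at 23.2, 25.8 and 17.6 FPKM on OP9 and 28.2, 23.5 and 15.7 on gelatin. Jag1 was at 7.85, 8.07 and 4.19 FPKM on OP9 and 8.25, 8.25 and 4.58 on gelatin, and Notch2 was at 10.04, 9.93 and 6.37 and at 9.0, 9.81 and 8.05. The groups of all 3 genes overlapped. The tables were normalized separately, so levels across them are set side by side with no test.

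The pathway around the receptors was read from lists of 67 other genes in 7 roles. In D5-LSKCD201+ against D5-LSKCD201-, 58 of them were tested, 17 were called higher and 4 lower, beside 10.8% and 13.9% of all genes, and the median log2 difference was 0.29 against -0.12 for all genes. Without D5-LSKCD201- replicate 2 the pathway median was 0.15. Among the 8 tested genes of receptor glycosylation, 2 were called higher (Mfng and Eogt) and 0 lower. Mfng, a Fringe sugar transferase that shifts receptor preference towards Delta ligands, was at 96.1 to 97.9 FPKM in D5-LSKCD201+ and 6.35 to 7.60 in D5-LSKCD201- (log2 difference 3.59, SE 0.08, limma, adjusted p = 8.3e-08). Its level was 90.6 to 112.2 FPKM in fetal liver, 165.8 ± 13.7 (SD, n = 3) in bone marrow and 7.02 to 7.73 in mESC. The other Fringe genes did not pass both thresholds, with 0.32 for Lfng (0.609 to 0.911 against 0.238 to 0.621 FPKM) and -0.51 for Rfng (8.83 to 9.25 against 12.2 to 14.2 FPKM). Of the 8 proteases tested, 4 were called higher, namely Adam10, Furin, Aph1a and Psen2, which take part in the cuts of the receptor, and 0 lower. The 4 tested genes of ligand ubiquitination gave no call.

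Of the 16 nuclear genes, 1 was called higher (Maml2) and 2 lower (Rbpj and Kat2b), near the 10.8% and 13.9% of all genes. Rbpj, the DNA-binding partner of all 4 receptors, was at 5.66 to 6.54 FPKM in D5-LSKCD201+, 12.4 to 18.8 in D5-LSKCD201- and 29.0 to 33.2 in mESC (log2 difference from D5-LSKCD201- of -1.304, SE 0.16, limma, adjusted p = 0.000279). Of the 3 Hes and Hey genes tested, Hey1 and Hey2 were called higher. Hey1, which the study lists among genes of arterial specification, was at 33.6 to 34.5 FPKM against 9.48 to 12.1 (1.60, SE 0.09, limma, adjusted p = 6.1e-06). Hes1 was at 93.1 to 105.1 FPKM against 109.1 to 138.6, a difference of -0.33 that did not reach the fold threshold. In bone marrow Hes1 was at 1001 to 1039 FPKM and in fetal liver at 128.6 to 165.4, and it was called lower in D5-LSKCD201+ than in bone marrow (-3.35, SE 0.06, adjusted p = 4.8e-09), while Hey1 was called higher than there (2.59, SE 0.19).

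Inhibitors and non-canonical ligands held the other large differences. Of 12 inhibitors and regulators tested, 3 were called higher (Dlk1, Nrarp and Numb) and 1 lower (Dtx1), beside 10.8% and 13.9% of all genes. Dlk1, a ligand-like protein without the receptor-activating domain, was at 115.0 to 126.4 FPKM in D5-LSKCD201+ and 6.49 to 14.1 in D5-LSKCD201- (log2 difference 3.45, SE 0.23, limma, adjusted p = 1.3e-05). It stood at 46.4 to 51.2 FPKM in fetal liver and 1.04 to 3.26 in bone marrow. Dtx1, a Deltex ubiquitin ligase, was at 0.182 to 0.305 FPKM in D5-LSKCD201+, 9.54 to 11.3 in D5-LSKCD201- and 13.5 to 15.5 in mESC (-3.17 against D5-LSKCD201-, SE 0.10, adjusted p = 4.0e-07). Of 7 other ligands tested, 5 were called higher (Egfl7, Egfl8, Nov, Mfap2 and Cntn1) and 1 lower (Dner). Of all 21 pathway genes called, 6 (Cntn1, Egfl8, Maml2, Nov, Dner and Dtx1) had a mean under 0.5 FPKM in the lower group and so entered the test through the higher one, which bears on these counts. Egfl7, a secreted endothelial protein that also stood in the endothelial marker list, was at 478.7 to 504.3 FPKM against 51.0 to 56.3 (3.18, SE 0.06, adjusted p = 4.5e-08). Egfl8 was at 7.29 to 8.93 FPKM against 0.0735 to 0.249 (2.98, SE 0.12, adjusted p = 9.0e-07).

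**Figure D4:**
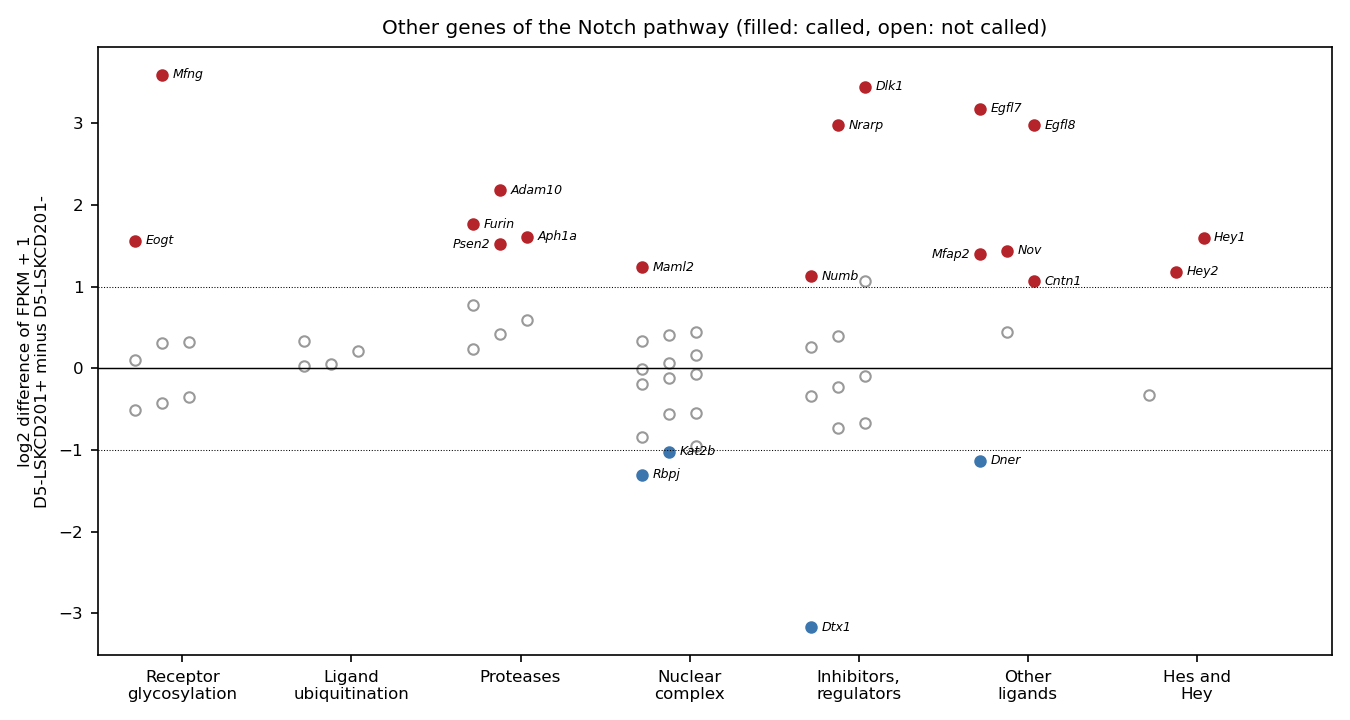
Points give the log2 difference of FPKM + 1 between D5-LSKCD201+ and D5-LSKCD201- (y axis) for the 58 tested pathway genes, by role, filled and named where called (red higher, blue lower) and open where not. Mfng and Dlk1 are the highest points and Dtx1 the lowest, and the genes of ligand ubiquitination lie between the dotted fold thresholds.

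In the other comparisons, the pathway lists gave these counts. Against mESC, 20 of 57 tested genes were called higher in D5-LSKCD201+ and 8 lower, beside 19.5% and 18.1% of all genes (median 0.39, all genes -0.07). Of these 28, 7 (Cntn1, Dtx1, Egfl8, Hey2, Maml2, Maml3 and Nov) had a mean under 0.5 FPKM in the lower group. They entered the test through the higher one, which bears on these counts. Against fetal liver, 12 of 59 were called higher and 9 lower in D5-LSKCD201+, beside 15.1% and 19.6% (median -0.09, all genes -0.16). Against bone marrow it was 14 and 16 of 59, beside 17.5% and 27.2% (median -0.28, all genes -0.23). Of those called, 6 of 21 against fetal liver entered the test through the higher group (Aph1c, Cntn1, Hes5, Hey2, Mfap5 and Nov). Against bone marrow, 8 of 30 did (the same 6 with Egfl8 and Neurl1a). Under quantile normalization the bone marrow median was 0.01 (all genes -0.02), with 2890 of all genes called higher and 3007 lower in place of 2406 and 3753, and the fetal liver median was 0.02 (all genes -0.05). Single libraries also moved these medians. Without D5-LSKCD201+ replicate 1 they were -0.15 (bone marrow) and 0.00 (fetal liver), and without replicate 3 that of fetal liver was -0.16. D5-LSKCD201- had 6 of 51 called higher and 3 lower than mESC, beside 10.9% and 3.48% of all genes, and fetal liver 2 of 54 higher and 7 lower than bone marrow, beside 7.78% and 11.3%. Of the 9 called in D5-LSKCD201- against mESC, 1 (Dner) entered the test through the higher group. In the coculture, beside 2.11% of all genes called higher and 0.509% lower, 1 of 57 was called higher on OP9 (Dlk1, at 24.5 to 38.8 against 9.33 to 14.9 FPKM, log2 difference 1.297, SE 0.20, limma, adjusted p = 0.0110) and 0 lower. The Notch targets gave no call there, with 0.43 for Hes1 (adjusted p = 0.230) and 0.60 for Hey1 (adjusted p = 0.279), nor did Lfng (0.17), Mfng (0.17), Rfng (0.02) or Rbpj (0.13).

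The genes whose pattern over the 15 sorted libraries was most like each member were named by Pearson r of log2(FPKM + 1) among 14457 genes, as a description. Libraries of a group share their source and the 5 groups differ widely, so high r values are common. For Dll4 these were Tek (r = 0.994), Arap3 (0.988) and Nol4l (0.987), and for Notch4 they were Adamts4 (0.991), Acer2 (0.990) and Efnb2 (0.987). Tek encodes the endothelial angiopoietin receptor and stood at 83.1 to 88.8 FPKM in D5-LSKCD201+, 7.61 to 11.7 in fetal liver and 2.37 to 2.67 in bone marrow. Efnb2 encodes the arterial ephrin ligand. For Notch1 they were Mapre2 (0.977), Map3k11 (0.976) and Msn (0.976), for Notch2 Alpk3 (0.984), Trim44 (0.984) and Ago1 (0.980), and for Notch3 Prtg (0.971), Efs (0.971) and Hs3st3b1 (0.970). For Dll1 they were Aplp2 (0.989), Cds2 (0.989) and Hykk (0.984), and for Dll3 Kcnk1 (0.996), Serpinb6c (0.996) and Fmr1nb (0.996). For Jag1 they included Slc27a3 (0.982) and Lurap1l (0.981), and for Jag2, with the lowest values of the 9, Ocel1 (0.955), Zfp287 (0.952) and Paqr8 (0.951).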

How the data were processed

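The deposited FPKM values were made by the authors from paired-end mRNA reads and are scaled to transcript length and library size. The submitters' processing notes list HISAT2 2.0.5, StringTie 1.3.3 and Cuffdiff 1.3.0 with GRCm38 and mm9, and the study's methods place the alignment on GRCm38. Strand use in counting is not given in the sources used here. Read depth is unknown, since FPKM kept no common step, and the libraries' sums of FPKM ranged from 483263 to 508307 (coculture) and from 508622 to 620332 (sorted). The coculture table listed 22899 genes, 3578 of them without values. Pairs of groups were fitted with limma 3.58.1 (trend, two-sided, R 4.3.3) on log2(FPKM + 1), keeping genes whose mean over the 6 libraries reached 0.5 FPKM. Benjamini-Hochberg adjustment ran over all genes tested, and calls required both an adjusted p below 0.05 and a log2 difference of 1 or more in size. An exact permutation test of 3 against 3 libraries cannot go below p = 0.1. The fit was tested on simulated data. Samples were grouped by title, where the labels write CD021 for CD201. Same-numbered libraries deviated together in every pair for fetal liver and bone marrow only (r = 0.24, 0.20 and 0.16). Fetal liver replicates 2 and 3 nonetheless had a higher r with a bone marrow library of another number. No label says what these samples share, so pairing is not established. The main fits were unpaired, and the replicate block was an alternative. Each fit was repeated with quantile normalization, with a pseudocount of 0.1, without the filter or with 1 FPKM as its minimum, with a replicate block, as 1 fit over all sorted groups, by the adjusted p alone and leaving out each library, and, added after the data were seen, averaging the closest libraries of a group and leaving out both coculture libraries numbered 3. The text names all 9 members, the 5 pathway genes with the largest called changes in the coculture and D5-LSKCD201+ against D5-LSKCD201- comparisons, Lfng, Mfng, Rfng, Rbpj, Hes1, Hey1 and Dlk1, and the 3 most similar genes per member, of which 1 is not reported here. Other called genes of D5-LSKCD201+ against D5-LSKCD201- were named after their values were seen. The members and lists were chosen with earlier results of these data known. Gene positions are from the GENCODE annotation of GRCm38.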

Additional observations from a re-analysis of the deposited data

Results flagged for a closer look

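Dll3 and Jag2 stood on opposite sides of mESC in the 2 D5 groups. For Dll3, every D5-LSKCD201- library was above the mESC range and every D5-LSKCD201+ library below it. The difference itself, D5-LSKCD201+ minus D5-LSKCD201-, was -3.56 (limma, adjusted p = 7.3e-07). Dll3 entered that test through D5-LSKCD201-, since its D5-LSKCD201+ mean was 0.47 FPKM. Against mESC, Dll3 was called in D5-LSKCD201+ (-2.59) and not in D5-LSKCD201- (0.96). For Jag2 the sides were exchanged, with every D5-LSKCD201+ library above the mESC range and every D5-LSKCD201- library below it. The difference between the D5 groups was 1.14 (limma, adjusted p = 0.000281). Neither Jag2 difference from mESC was called (0.45 in D5-LSKCD201+ and -0.69 in D5-LSKCD201-). Of all genes, 86.1% did not overlap with mESC in D5-LSKCD201+ and 64.4% in D5-LSKCD201-. Dll3 and Jag2 were flagged for differing between the D5 groups, so their p-values here are not independent evidence. All these D5 and mESC libraries carried the strain label 129/ola.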

How the results depend on the processing

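Of 714 recomputed log2 differences for 56 gene and comparison pairs, 646 kept their direction and side of the thresholds, 17 lost and 19 gained a call and 32, all of genes not called, changed sign. By the adjusted p alone, 2 receptors or ligands were called higher on OP9, 6 in D5-LSKCD201+ against mESC and 3 in D5-LSKCD201- against mESC. The same rule called 3 lower in D5-LSKCD201+ against D5-LSKCD201-, 2 against mESC and 2 against bone marrow, 1 in D5-LSKCD201- against mESC and 2 in fetal liver against bone marrow. Of the pathway genes it called 2 higher on OP9, 31 higher and 20 lower in D5-LSKCD201+ against mESC, 11 lower against D5-LSKCD201-, 21 lower against fetal liver, 28 lower against bone marrow, 17 higher and 11 lower in D5-LSKCD201- against mESC, and 9 higher and 20 lower in fetal liver against bone marrow. Over all genes this rule called 4.61% higher and 2.27% lower on OP9. In D5-LSKCD201+ it called 28.7% and 39.6% against D5-LSKCD201-, 40.3% and 45.2% against mESC, 30.1% and 42% against fetal liver and 34.2% and 49.2% against bone marrow. It called 32.2% and 22.4% in D5-LSKCD201- against mESC and 22.2% and 32.9% in fetal liver against bone marrow. With a pseudocount of 0.1, receptors and ligands gave 2 higher on OP9, 2 lower in D5-LSKCD201+ against D5-LSKCD201-, and 3 higher and 1 lower in D5-LSKCD201- against mESC, and pathway genes 2 higher on OP9, 10 higher and 5 lower in D5-LSKCD201- against mESC and 5 higher in fetal liver against bone marrow. Over all genes that pseudocount gave 3.19% higher on OP9, 18.3% lower in D5-LSKCD201+ against D5-LSKCD201-, 15.6% higher and 5.81% lower in D5-LSKCD201- against mESC and 10.1% higher in fetal liver against bone marrow. Quantile normalization gave 0 receptors or ligands higher in D5-LSKCD201- against mESC and 0 lower in fetal liver against bone marrow. For pathway genes it gave 2 lower in D5-LSKCD201+ against D5-LSKCD201-, 6 lower in D5-LSKCD201- against mESC and 4 higher in fetal liver against bone marrow. Over all genes it gave 11.7% lower in D5-LSKCD201+ against D5-LSKCD201-, 8.12% higher and 5.45% lower in D5-LSKCD201- against mESC and 8.97% higher and 9.22% lower in fetal liver against bone marrow. The minimum of 1 FPKM also gave 0 receptors or ligands higher in D5-LSKCD201- against mESC, with 1339 of all 12010 genes tested called higher. Averaging the closest libraries gave 0 higher on OP9 and 0 lower in fetal liver against bone marrow. Over all genes that averaging gave 225 of 12958 higher on OP9 and 1481 of 13503 lower in fetal liver against bone marrow. Leaving out both coculture libraries numbered 3 gave 2 pathway genes higher, with 327 of all 12958 genes. Leaving out 1 library gave 0 to 1 receptors or ligands higher on OP9, 1 to 3 lower in D5-LSKCD201+ against D5-LSKCD201-, 0 to 3 higher in D5-LSKCD201- against mESC, and 0 to 1 higher and 0 to 1 lower in fetal liver against bone marrow, with 1 to 2 pathway genes higher on OP9 and 2 to 4 in fetal liver against bone marrow. Over all genes, leaving out 1 library gave 172 to 318 of 12958 higher on OP9. It gave 1850 to 2040 of 13691 lower in D5-LSKCD201+ against D5-LSKCD201-, and 1431 to 1553 of 13596 higher in D5-LSKCD201- against mESC. In fetal liver against bone marrow it gave 1024 to 1125 of 13503 higher and 1497 to 1618 lower. For single genes in the coculture, leaving out 1 library moved the log2 difference of Notch2 from -0.145 to 0.146, Notch3 from -0.22 to 0.18, Dll1 from -0.214 to 0.724, Dll3 from -0.136 to 0.631 and Jag1 from -0.309 to 0.197, and in D5-LSKCD201- against mESC that of Notch1 from -0.126 to 0.226, Notch4 from -0.169 to 0.289 and Dll1 from -0.206 to 0.082. Signs also changed on averaging the closest libraries (coculture Dll1 -0.165, Dll3 -0.124 and Notch3 -0.07, and in D5-LSKCD201- against mESC Notch1 -0.069 and Notch4 -0.136), without both libraries numbered 3 (Notch2 0.079, Notch3 -0.069), with quantile normalization (D5-LSKCD201- against mESC Notch1 -0.245 and Notch4 -0.282, fetal liver against bone marrow Notch1 0.014) and with a pseudocount of 0.1 (D5-LSKCD201- against mESC Notch4 -0.042). The cause of these changes was not tested. Quantile normalization moved the median log2 difference of all genes by over 0.1, to -0.10 from 0.05, in D5-LSKCD201- against mESC, and likewise in 4 other sorted comparisons. The replicate block changed no call of a receptor or ligand (Dll4 on OP9 1.28, adjusted p = 0.0107). The depth is unknown, so precision below 1 FPKM cannot be stated.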
